A study of Mus musculus with 12 samples.

Results

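Macrophage and myeloid marker genes were followed in mouse dorsal root ganglia, the clusters of sensory neuron cell bodies beside the spinal cord, before and after a nerve injury. A list of 40 markers was looked up by gene symbol in 12 RNA-seq libraries, and all 40 were found among the 24060 genes of the deposited tables, with Adgre1 listed there under its older symbol Emr1. Of these, 32 reached an RPKM (reads scaled to gene length and to library size) of 1 or more in at least 3 libraries, as did 14195 of all genes. The libraries came from adult male C57BL/6J mice of 9 to 10 weeks, with 3 libraries in each of 4 groups. One group was naive and the others were sampled at day 1, day 3 and day 7 after spared nerve injury, a model that ties and cuts the common peroneal and tibial nerves and leaves the sural nerve whole. Sham-operated mice are not among the groups analysed here, and effects of the operation and of the nerve lesion cannot be told apart. The labels do not say whether the 3 libraries of a group came from separate mice or pools, nor which ganglia or side were taken, so p-values measure the spread between libraries, which may in part be technical.

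Sensory ganglia hold resident macrophages that lie beside the satellite glia and the vessels, and after damage to a peripheral nerve their number is known to grow by division and by entry of blood monocytes. Macrophages carry Fc receptors and other receptors that signal through the adaptors Fcer1g and Tyrobp, engulf debris into phagosomes, and break it down with lysosomal proteases. Members were sorted by textbook knowledge into 8 resident-type markers (Mrc1, Cd163, Lyve1, Folr2, Pf4, F13a1, Ms4a7, Cx3cr1), 10 recruited-type markers of monocytes and inflammatory macrophages (Ccr2, Itgam, Cd14, Lyz2, Ms4a6c, Fcgr1, Tlr2, Clec7a, Slc11a1, Cybb) and 22 markers shared by macrophages or by most leukocytes. F13a1 and Cx3cr1 are also expressed by subsets of blood monocytes, so the classes are not exclusive.

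Library sizes, recovered from the steps between RPKM values, ran from 13627000 to 17953000 reads, and a single read from a 1 kb transcript equalled 0.0557 to 0.0734 RPKM. The summed RPKM of 5 sensory neuron markers was 609 to 1319 and that of 5 Schwann cell markers 822 to 1541 over the 12 libraries, so the markers of the labelled tissue were present throughout. On the second principal component of all genes (16% of the variance), naive replicate 1 was the highest library and day 7 replicate 1 the lowest. Day 1 replicate 3 and day 3 replicate 1 lay about as far from the others of their groups as naive replicate 1 did, and were left out singly. Skeletal muscle markers summed to 19.6 RPKM in naive replicate 1 and 15.2 in day 7 replicate 2, against at most 3.41 in the other 10 libraries. Calls against naive that ended without the pair at the ends of the second component, or without the pair with muscle transcripts, are given below.

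Of the 32 myeloid markers tested, none rose at day 1, and a minority rose at days 3 and 7, led by Ctss and Mrc1. In a limma model of all 12 libraries on log2(RPKM + 0.5), with adjustment over all 14195 genes, 0 of the 32 members rose at day 1 and 1 fell, where 2.6% of all genes rose and 0.831% fell. At an unadjusted p under 0.05 there were 3 members at day 1 (14.9% of all genes), and a voom fit on recovered reads also called 1 fall and no rise. Limma with array weights called 4 of the 32 members, 2 of them higher, but it also called 13% of all genes. At day 3, 7 of 32 rose and 1 fell, against 3.72% and 1.95% of all genes. At day 7, 11 of 32 rose and 1 fell, against 2.32% and 0.599% of all genes. The median log2 difference from naive over the 32 members was 0.00 at day 1, 0.60 at day 3 and 0.78 at day 7, while over all genes it was -0.01, 0.00 and 0.00. These medians include 6 members (Aif1, Cx3cr1, Laptm5, Cd84, Clec7a and Tlr7) that passed the RPKM filter only through injured libraries, at least 3 of which therefore had to exceed all naive ones. Among the 26 members with a naive library at 1 RPKM or more, 7 rose and 1 fell at day 3, and 9 rose and 1 fell at day 7, with medians of 0.04, 0.58 and 0.76 on the 3 days.

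On the scaled log2 values, all 3 day 3 libraries lay above all 3 naive libraries for 21 of the 32 members, which was so for 13% of all genes. At day 7 this held for 25 members, against 9.66% of all genes. Among the 26 members with a naive library at 1 RPKM or more it held for 16 at day 3 and 19 at day 7. It held at day 1 for 2 members (F13a1 and Lyve1), against 11.8%. A test of any difference among the 4 groups called 14 of 32 members, against 4.78% of all genes, and 11 of the 26 with a naive library at 1 RPKM or more. Those 14 included Ptprc (adjusted p = 0.0283), Lyz2 (0.0319) and Cx3cr1 (0.0335), which passed no single contrast with naive. In a bulk tissue, more cells of a type and more RNA per cell cannot be told apart. Of the day 7 calls, 4 of 12 (Ctss, Mrc1, Mpeg1 and Adgre1) were kept when the 2 libraries with muscle transcripts were left out, which leaves 2 libraries in the naive and day 7 groups. Calls over all genes at day 7 then fell from 415 (2.92%) to 165 (1.16%), and the median difference over the 32 members was 0.74. Without that pair the day 7 calls of Ccr2 (adjusted p = 0.0891), Cd84 (0.169), F13a1 (0.121), Fcgr2b (0.379), Itgam (0.105), Laptm5 (0.301), Lcp1 (0.0786) and Ms4a7 (0.0884) ended, as did the day 3 calls of Itgam (0.0898) and Fcgr2b (0.111). Leaving out the pair at the ends of the second component, a choice made after seeing the data, gave 8 calls at day 3 and 12 at day 7, but not of the same genes. Of all genes 6.93% and 4.11% were then called. At day 3 Itgam (adjusted p = 0.0627) and Fcgr2b (0.0805) were lost and Cd163 (0.0460) and Cx3cr1 (0.0397) gained. At day 7 Ccr2 (0.0811), Cd84 (0.145) and Fcgr2b (0.145) were lost and Cx3cr1 (0.0355), Fcer1g (0.00298) and Lyz2 (0.0198) gained. Without naive replicate 3 there were 5 calls at day 3 (3.16% of all genes) and 5 at day 7 (1.66%). Without day 3 replicate 3 there were 5 at day 3 (3.78%), and without naive replicate 2 there were 7 at day 7 (1.67%).

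**Figure D1:**
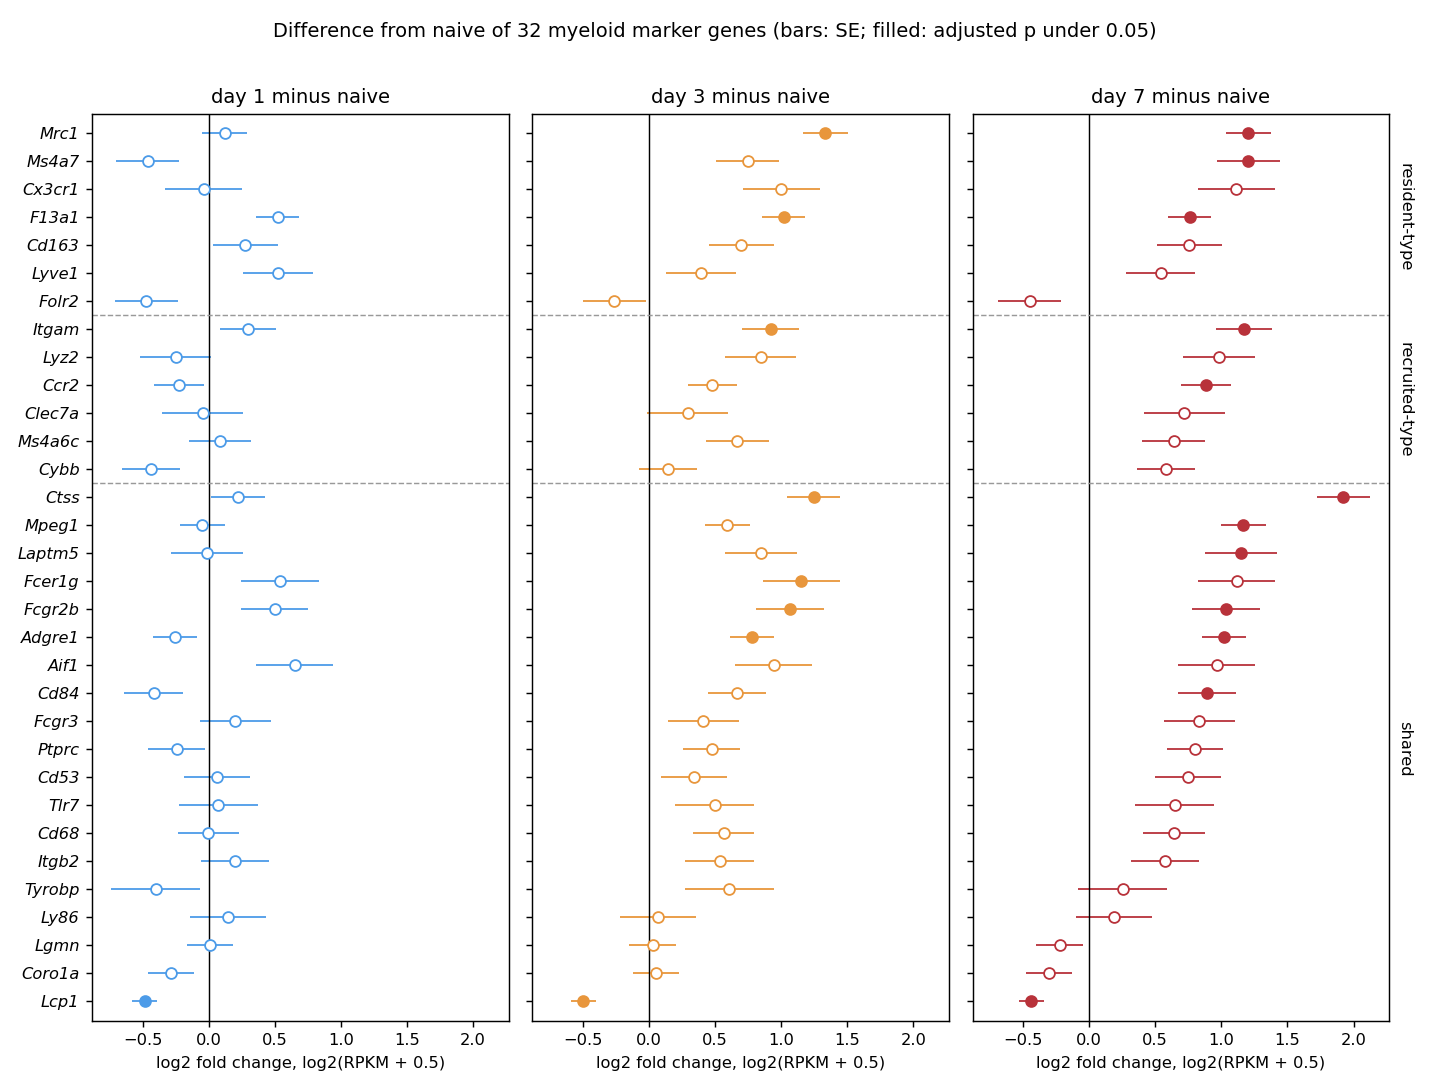
Log2 difference from naive, on log2(RPKM + 0.5), of the 32 members at day 1 (left), day 3 (middle) and day 7 (right), with resident-type, recruited-type and shared markers set apart, bars showing the standard error and filled points an adjusted p under 0.05. At day 1 only Lcp1 is filled, on the lower side, while at day 7 the points lie right of 0 except Folr2, Lgmn, Coro1a and Lcp1.

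Between days, 5 members were higher at day 3 than at day 1 and 0 lower, where 0.38% of all genes were higher and 0.127% lower. Against day 1, 9 members were higher at day 7 and 0 lower, where 0.613% of all genes were higher and 0.359% lower. Between day 7 and day 3 limma called 0 of the 32 members and 0 of all 14195 genes (0%), as did the voom fit. At an unadjusted p under 0.05 there were 3 members (Mpeg1, Ctss and Ccr2, each higher at day 7), against 5.04% of all genes. Every day 3 library exceeded every day 1 library for 18 members (7.74% of all genes), every day 7 library exceeded every day 1 library for 19 (6.95%), and every day 7 library exceeded every day 3 library for 5 (4.89%).

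Mrc1, Ctss and Mpeg1 were the markers used to check for macrophages, and their summed RPKM was 9.02 to 12.4 in naive libraries, 11.1 to 12.4 at day 1, 23.5 to 30.1 at day 3 and 26.6 to 39.5 at day 7. The bases before their start sites are printed because these genes rose and because the myeloid transcription factor PU.1, the product of the member Spi1, is known to act at promoters of such genes. Each window holds the 250 bases before the RefSeq start (GRCm38.p6), 5′ to 3′ on the gene's strand, and capitals mark the PU.1 core GAGGAAG or its reverse complement CTTCCTC.
Mrc1, chr2:14229164-14229413, + strand: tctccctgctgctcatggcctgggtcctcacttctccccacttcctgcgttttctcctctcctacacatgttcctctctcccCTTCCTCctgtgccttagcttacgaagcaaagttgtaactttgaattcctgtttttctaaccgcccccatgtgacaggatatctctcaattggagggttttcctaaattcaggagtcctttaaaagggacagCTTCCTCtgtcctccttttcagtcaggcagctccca
Ctss, chr3:95526536-95526785, + strand: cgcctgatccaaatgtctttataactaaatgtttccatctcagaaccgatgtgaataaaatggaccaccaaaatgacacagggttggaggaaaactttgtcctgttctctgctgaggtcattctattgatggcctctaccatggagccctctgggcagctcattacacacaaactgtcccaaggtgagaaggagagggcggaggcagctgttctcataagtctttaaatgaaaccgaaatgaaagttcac
Mpeg1, chr19:12460520-12460769, + strand: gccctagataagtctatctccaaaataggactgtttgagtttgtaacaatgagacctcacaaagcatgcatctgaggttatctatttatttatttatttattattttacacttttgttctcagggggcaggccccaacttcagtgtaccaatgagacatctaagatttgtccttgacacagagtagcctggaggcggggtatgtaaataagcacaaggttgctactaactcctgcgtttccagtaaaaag
The Mrc1 window held the core 2 times, both on the minus strand, beginning 168 and 36 bases before the start, and the windows of Ctss and Mpeg1 did not hold these letters. Among members in the promoter table, 8 of 33 (24.2%) held the core on either strand, as did 5 of the 27 that also passed the RPKM filter (18.5%), against 12% of 27025 genes. Besides Mrc1 these were Itgam, F13a1, Fcgr3 and Laptm5, and below the filter Fcgr1, Pf4 and Trem2. The core contains the GGAA letters shared by the wider ETS family.

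Among phagosome and lysosome genes, Ctss showed the highest rise of the 32 members at day 7. It encodes cathepsin S, a protease that works in endosomes and trims the invariant chain of MHC class II, and lies on chromosome 3 (mm10, 95526786 to 95556403). Its RPKM was 4.05, 3.33 and 3.10 in naive replicates 1, 2 and 3, and 4.52, 4.03 and 3.81 at day 1. It was 7.29, 11.3 and 9.11 at day 3 and 9.20, 19.3 and 18.2 at day 7. Every library of days 3 and 7 lay above every naive and day 1 library, while day 7 replicate 1 stood at about the day 3 level. Ctss rose by 1.25 (log2, SE 0.20, adjusted p = 0.00175) at day 3 and by 1.92 (SE 0.20, adjusted p = 6.77e-05, a 3.79-fold change on that scale) at day 7, and both calls were kept in all 24 alternative settings. At day 1 its difference was 0.22 (adjusted p = 0.691).

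Mpeg1, the gene of the pore-forming protein perforin-2 of the phagosome, lies on chromosome 19 (12460779 to 12465283). Its naive RPKM was 2.28, 2.65 and 2.39, and its day 1 RPKM 2.40, 2.39 and 2.21. At day 3 it read 3.71, 3.30 and 5.23, and at day 7 6.06, 5.98 and 6.58. The day 7 libraries lay closely together (6.21 ± 0.33 RPKM, SD, n = 3) and above all others. Mpeg1 rose at day 7 by 1.17 (SE 0.17, adjusted p = 0.00103), in all 24 alternative settings too. Its day 3 difference of 0.59 had an adjusted p of 0.0573, which passed the threshold without day 3 replicate 2 (0.73, adjusted p = 0.0413).

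Lyz2, lysozyme of myeloid cells, was among the most abundant members, with a wide spread between replicates. Its naive RPKM was 33.7, 31.2 and 26.1, and its day 1 RPKM 22.6, 27.9 and 25.2. It was 36.0, 65.6 and 73.0 at day 3 and 35.6, 82.3 and 77.9 at day 7, so replicate 1 of each of these days lay just above the highest naive library. The test of any difference among the 4 groups called Lyz2 (adjusted p = 0.0319). Its differences from naive of 0.85 (SE 0.27, adjusted p = 0.0987) at day 3 and 0.98 (SE 0.27, adjusted p = 0.0852) at day 7 missed the threshold. Without day 3 replicate 1 they were 1.13 (adjusted p = 0.0271) and 0.97 (adjusted p = 0.0373), and without day 7 replicate 1 they were 0.84 (adjusted p = 0.0239) and 1.29 (adjusted p = 0.00671). Lyz2 has a near-identical copy, Lyz1, with which reads may be shared, so its level is uncertain.

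The other lysosome and phagosome members did not pass the test on any day against naive. Cd68, a lysosomal glycoprotein of macrophages, read 1.24 to 2.01 RPKM in naive libraries and 1.94 to 4.24 at day 7 (0.64, adjusted p = 0.203). Cybb, the membrane subunit of the phagocyte NADPH oxidase, read 1.53 to 2.09 naive and 2.78 to 3.29 at day 7, above all naive libraries (0.58, adjusted p = 0.232). Lgmn, the asparagine endopeptidase legumain, was high in every group (19.1 to 39.2 RPKM) with differences of 0.01, 0.03 and -0.22 on the 3 days.

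Among scavenger and resident-type genes, Mrc1 rose on days 3 and 7. It encodes the mannose receptor CD206, a marker of tissue-resident macrophages, and lies on chromosome 2 (14229392 to 14332057). Its naive RPKM was 6.07, 5.74 and 3.53, and its day 1 RPKM 5.51, 4.69 and 6.22. It read 12.5, 15.5 and 12.96 at day 3 and 11.3, 14.2 and 11.7 at day 7. The libraries of both later days lay above every earlier library, and the 2 later days overlapped. Mrc1 rose by 1.33 (SE 0.17, adjusted p = 0.000243) at day 3 and by 1.21 (SE 0.17, adjusted p = 0.000853) at day 7, and both calls were kept in all 24 alternative settings. The gene also spans the microRNA gene Mir511.

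Ms4a7, a tetraspan membrane protein of macrophages, lies on chromosome 19 (11321039 to 11336146). Its RPKM was 1.67, 1.74 and 1.15 in naive libraries and 0.951, 1.36 and 0.617 at day 1. It was 2.00, 3.21 and 3.80 at day 3 and 3.54, 4.09 and 5.05 at day 7. Each day 7 library lay above each naive and day 1 library, and 1 day 3 library was near the naive values. Ms4a7 rose at day 7 by 1.21 (SE 0.24, adjusted p = 0.0105), a call that ended without naive replicate 3 (adjusted p = 0.0654) or day 7 replicate 3 (adjusted p = 0.0512). At day 3 its difference was 0.75 (adjusted p = 0.0879).

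F13a1, the A chain of coagulation factor XIII made by macrophages and platelets, lies on chromosome 13 (36867178 to 37050244). Its naive RPKM was 2.33, 1.76 and 1.71, and its day 1 RPKM 3.29, 2.86 and 2.72. It read 4.10, 4.01 and 5.47 at day 3 and 3.06, 4.22 and 3.77 at day 7. F13a1 lay above all naive libraries on every day, with day 3 the highest group. It rose by 1.02 (SE 0.16, adjusted p = 0.00168) at day 3, also with any 1 library left out, and by 0.76 (SE 0.16, adjusted p = 0.0195) at day 7. Removing naive replicate 2 (adjusted p = 0.0806), naive replicate 3 (0.0987) or the second day 7 library (0.0897) ended the day 7 call. At day 1 its difference of 0.52 had an adjusted p of 0.118.

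Of the other tested genes of this role, Cd163, Lyve1 and Folr2 passed no test with the chosen settings. Cx3cr1, also resident-type, is given among the chemokine and adhesion receptors. Cd163, the scavenger receptor for haemoglobin bound to haptoglobin, read 0.689 to 2.00 RPKM in naive libraries and 2.43 to 2.51 at day 7 (0.76, adjusted p = 0.145). Lyve1, a hyaluronan receptor of perivascular macrophages and lymphatic endothelium, read 0.640 to 2.06 naive and 1.57 to 2.82 at day 7 (0.54, adjusted p = 0.419). Folr2, a folate receptor of resident macrophages, was the resident-type member with a negative value on every day (-0.47, -0.26 and -0.45, adjusted p from 0.383 to 0.643), at 0.839 to 1.52 naive and 0.573 to 1.02 at day 7.

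**Figure D2:**
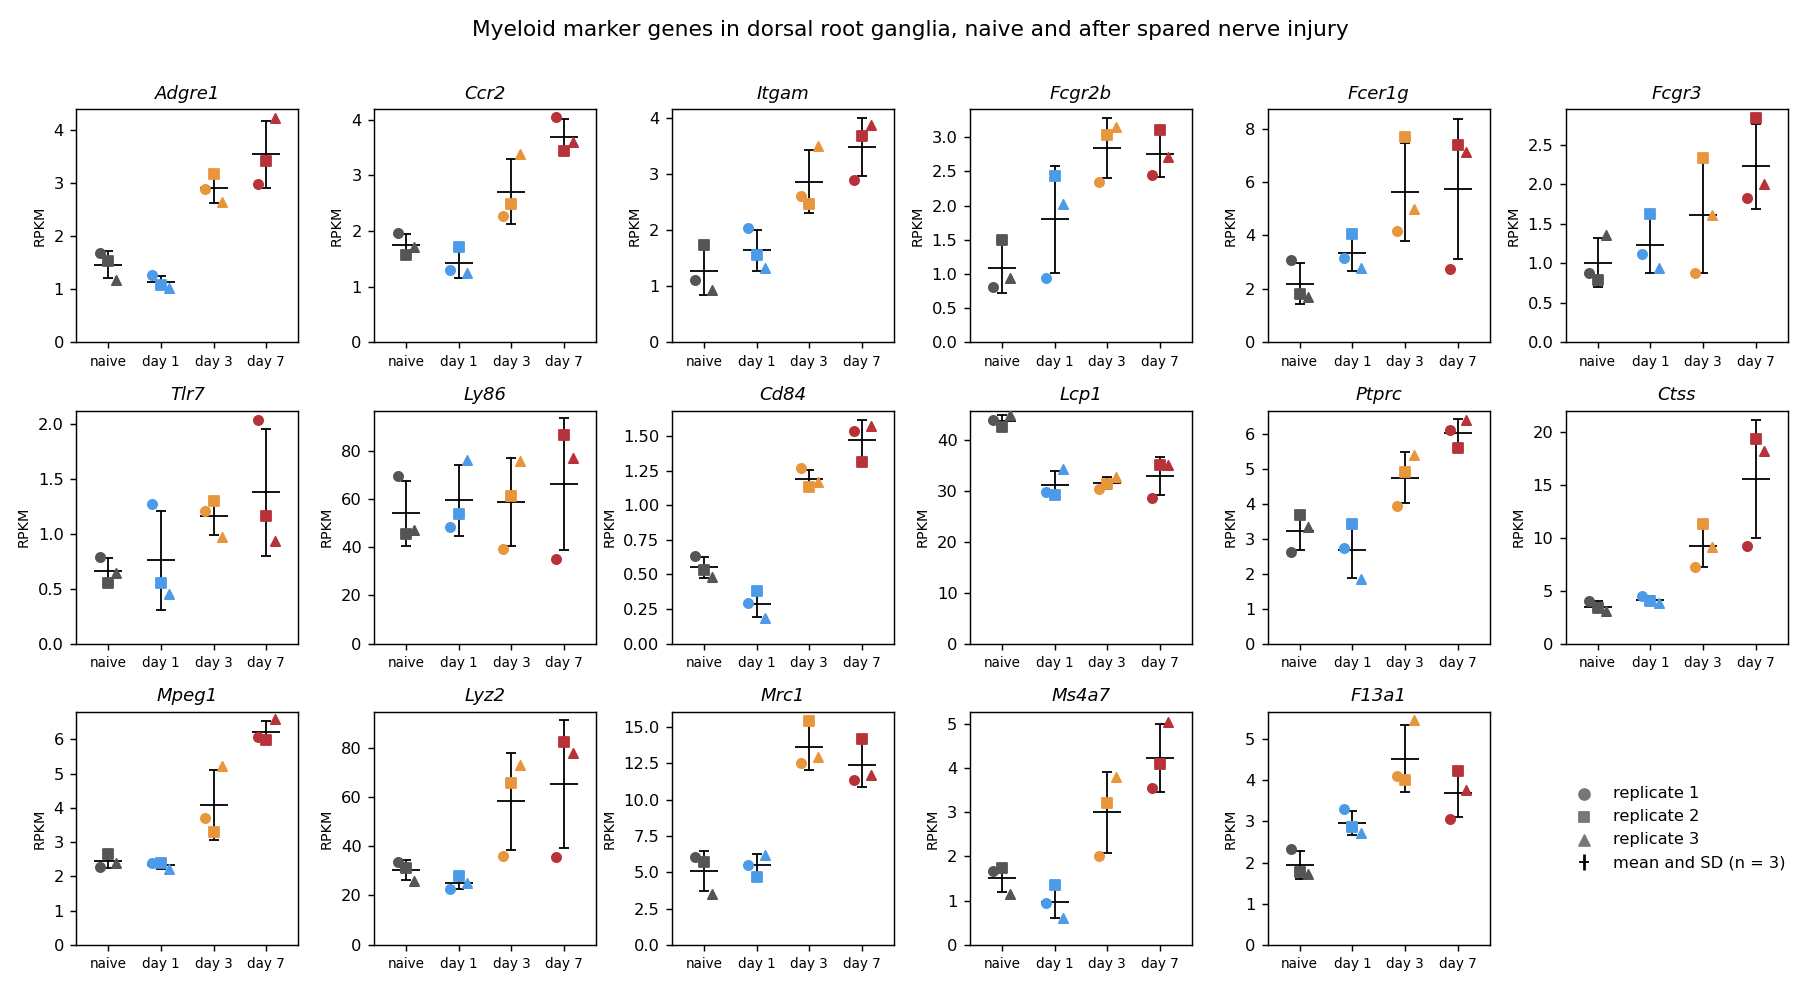
RPKM of 17 members in each of the 12 libraries, on linear axes that start at 0, with circles, squares and triangles for replicates 1, 2 and 3 and black lines for the mean and SD of 3 libraries. Mrc1 and Ctss lie above every naive and day 1 library from day 3 on, Ly86 overlaps in all groups, and Lcp1 is lower in every injured library than in the naive ones.

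Chemokine and adhesion receptors included 3 of 5 genes that rose at day 7, where 2.32% of all genes rose. Adgre1 encodes F4/80, the standard surface marker of mouse macrophages, and lies on chromosome 17 (57358691 to 57483527). Its RPKM was 1.68, 1.52 and 1.18 naive and 1.28, 1.08 and 1.03 at day 1. It was 2.88, 3.18 and 2.64 at day 3 and 2.98, 3.42 and 4.23 at day 7, above every naive and day 1 library on both later days. Adgre1 rose by 0.78 (SE 0.17, adjusted p = 0.0126) at day 3 and by 1.02 (SE 0.17, adjusted p = 0.00279) at day 7. Removing naive replicate 3 (adjusted p = 0.0722), or day 3 replicate 1 (0.0507) or 2 (0.0590), ended the day 3 call, and the day 7 call held with any 1 library left out.

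Ccr2, the receptor for the monocyte chemoattractant Ccl2, lies on chromosome 9 (124101950 to 124113557) and marks monocytes newly drawn from blood. It read 1.96, 1.56 and 1.71 RPKM in naive libraries and 1.29, 1.72 and 1.24 at day 1. It read 2.26, 2.48 and 3.38 at day 3 and 4.04, 3.44 and 3.60 at day 7, and the groups from naive to day 3 to day 7 did not overlap. Ccr2 rose at day 7 by 0.88 (SE 0.19, adjusted p = 0.0173), while its day 3 difference of 0.48 had an adjusted p of 0.176. Removing naive replicate 2 (adjusted p = 0.0783), naive replicate 3 (0.0691) or the first day 7 library (0.0585) ended the day 7 call.

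Itgam, the CD11b chain of the complement receptor integrin, is carried by monocytes, macrophages and neutrophils and lies on chromosome 7 (128062640 to 128118491). Its naive RPKM was 1.12, 1.74 and 0.929, and its day 1 RPKM 2.04, 1.55 and 1.33. At day 3 it was 2.61, 2.47 and 3.50, and at day 7 2.90, 3.67 and 3.87. Both later days lay above all naive and day 1 libraries. Itgam rose by 0.92 (SE 0.21, adjusted p = 0.0190) at day 3 and by 1.17 (SE 0.21, adjusted p = 0.00613) at day 7. Removing naive replicate 1 (adjusted p = 0.0718) or 3 (0.0991), or day 3 replicate 1 (0.0537) or 3 (0.0893), ended the day 3 call, and the day 7 call held with any 1 library left out.

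Itgb2, the beta chain that pairs with Itgam, read 0.561 to 1.06 RPKM in naive libraries and 1.21 to 2.33 at day 7, above all naive libraries, but did not pass the test (0.57, adjusted p = 0.359). Cx3cr1, the fractalkine receptor of resident macrophages and patrolling monocytes, read 0.0878 to 0.669 naive, 0.864 to 1.55 at day 3 and 0.924 to 1.74 at day 7. The test of any difference among the 4 groups called Cx3cr1 (adjusted p = 0.0335). Its differences from naive of 1.00 (SE 0.29, adjusted p = 0.0627) and 1.11 (SE 0.29, adjusted p = 0.0578) missed the threshold. Without naive replicate 1, its highest naive library, they were 1.21 (adjusted p = 0.0474) and 1.32 (adjusted p = 0.0495). The annotated Cx3cr1 locus (chromosome 9, 119901616 to 120069879) spans other genes, among them Wdr48 and Gorasp1, so its reads are uncertain.

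Fc receptors and their adaptors gave 2 rises at day 3 and 1 at day 7 among 5 tested members, against 3.72% and 2.32% of all genes. The test over the 4 groups called 0 of 5 (adjusted p from 0.0526 for Fcgr2b to 0.408 for Clec7a), against 4.78% of all genes. Fcgr2b, the inhibitory Fc gamma receptor, lies on chromosome 1 (170958617 to 170976547). Its RPKM was 0.812, 1.50 and 0.938 naive and 0.933, 2.44 and 2.02 at day 1. It was 2.34, 3.03 and 3.15 at day 3 and 2.44, 3.11 and 2.71 at day 7, so both later days lay above naive, and day 3 overlapped day 1 while the lowest day 7 library was level with the highest of day 1. Fcgr2b rose by 1.07 (SE 0.26, adjusted p = 0.0236) at day 3 and by 1.03 (SE 0.26, adjusted p = 0.0431) at day 7. Removing either of naive replicates 1 and 3, or of day 3 replicates 2 and 3, ended the day 3 call (adjusted p 0.0861 to 0.0940). The day 7 call was kept only when naive replicate 2 or 1 of day 1 replicates 1 and 2 was removed, and ended without any 1 of the other 9 libraries (adjusted p 0.0526 to 0.170).

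Fcer1g, the adaptor chain that carries the activation motif for Fc receptors, lies on chromosome 1 (171229572 to 171234365). It read 3.07, 1.81 and 1.70 RPKM naive and 3.15, 4.06 and 2.79 at day 1. It read 4.17, 7.69 and 5.01 at day 3 and 2.73, 7.39 and 7.14 at day 7. Day 3 lay above naive, and at day 7 replicate 1 fell among the naive and day 1 values while the other 2 libraries were higher, on the RPKM scale. Fcer1g rose at day 3 by 1.15 (SE 0.29, adjusted p = 0.0350), and its day 7 difference of 1.12 had an adjusted p of 0.0639. Removing any 1 of naive replicates 2 and 3, the first day 1 library or the 3 day 3 libraries ended the day 3 call (adjusted p 0.0531 to 0.152). Without day 7 replicate 1 the day 7 difference was 1.47 (adjusted p = 0.00436).

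Fcgr3, an activating Fc gamma receptor, read 0.877, 0.793 and 1.36 RPKM naive and 1.11, 1.62 and 0.947 at day 1. It read 0.876, 2.34 and 1.61 at day 3 and 1.83, 2.84 and 2.01 at day 7, with only the day 7 libraries all above naive (0.83, SE 0.27, adjusted p = 0.142). Fc gamma receptor genes are close copies of each other, so reads may be shared among them. Tyrobp (DAP12), the other adaptor, read 0.842 to 1.73 naive, 1.56 to 2.44 at day 3 and 0.547 to 2.33 at day 7, where replicate 1 was the lowest (0.25, adjusted p = 0.855). Clec7a (dectin-1), the fungal glucan receptor, passed the filter with 3 libraries at 1 RPKM or more, the fewest allowed, and read 0.434 to 0.471 naive and 0.967 to 1.22 at day 7 (0.72, adjusted p = 0.324).

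Of the innate sensors, Tlr7, the endosomal receptor for single-stranded RNA, read 0.789, 0.554 and 0.646 RPKM naive and 1.28, 0.551 and 0.448 at day 1. It read 1.21, 1.30 and 0.977 at day 3 and 2.04, 1.17 and 0.941 at day 7, above naive on both later days without passing the test (0.50 and 0.65, adjusted p = 0.431 and 0.377). Ly86 (MD-1), a secreted partner of the receptor RP105, had the highest mean of all members in each group and passed no test. Its RPKM was 69.5, 45.3 and 47.2 naive, 48.3, 53.8 and 76.1 at day 1, 39.4, 61.2 and 75.5 at day 3, and 34.9, 86.5 and 77.1 at day 7. All groups overlapped, with differences of 0.14, 0.07 and 0.19 (SE 0.29 each).

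Among leukocyte signalling and cytoskeleton genes, 2 of 8 rose at day 7 and 1 fell on every day. Over all genes 2.32% rose at day 7, and 0.831%, 1.95% and 0.599% fell at days 1, 3 and 7. Cd84, a receptor of the SLAM family, lies on chromosome 1 (171839697 to 171890718). It read 0.636, 0.534 and 0.485 RPKM naive, 0.291, 0.384 and 0.187 at day 1, 1.27, 1.13 and 1.17 at day 3, and 1.54, 1.31 and 1.57 at day 7. Its groups did not overlap between naive, day 1 and the later days, and day 1 was the lowest. Cd84 rose at day 7 by 0.89 (SE 0.22, adjusted p = 0.0426), and its differences were -0.42 (adjusted p = 0.409) at day 1 and 0.67 (adjusted p = 0.1004) at day 3. The day 7 call was kept only without day 1 replicate 2 or day 1 replicate 3, and ended without any 1 of the other 10 libraries (adjusted p 0.0547 to 0.157).

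Lcp1 (L-plastin), an actin-bundling protein of leukocytes, lies on chromosome 14 (75131101 to 75230842) and moved the opposite way. Its RPKM was 43.9, 42.5 and 44.8 naive, 29.7, 29.2 and 34.2 at day 1, 30.4, 31.4 and 32.7 at day 3, and 28.5, 35.1 and 35.1 at day 7. Every injured library lay below every naive library. Lcp1 fell by 0.48 (SE 0.09, adjusted p = 0.0104) at day 1, fell by 0.50 (SE 0.09, adjusted p = 0.00580) at day 3 and fell by 0.44 (SE 0.09, adjusted p = 0.0196) at day 7. The day 3 call held with any 1 library left out. The day 1 call ended without naive replicate 3 (adjusted p = 0.0677) or day 1 replicate 1 (0.0655), and the day 7 call without naive replicate 2 (0.0847) or naive replicate 3 (0.115).

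Ptprc (CD45), the phosphatase of all leukocytes, lies on chromosome 1 (138062861 to 138175708). It read 2.61, 3.68 and 3.35 RPKM naive, 2.74, 3.44 and 1.84 at day 1, 3.95, 4.90 and 5.41 at day 3, and 6.11, 5.60 and 6.40 at day 7. The test of any difference among the 4 groups called Ptprc (adjusted p = 0.0283). The day 7 libraries lay above all others, and the day 7 difference from naive of 0.80 (SE 0.21) had an adjusted p of 0.0622. It passed the threshold without day 1 replicate 2 (adjusted p = 0.0394) or day 1 replicate 3 (0.0238).

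Laptm5, a lysosomal membrane protein of leukocytes, read 0.797 to 0.931 RPKM naive, 1.53 to 3.27 at day 3 and 1.50 to 3.87 at day 7. It rose at day 7 by 1.15 (SE 0.27, adjusted p = 0.0343), a call that ended without any 1 of the naive libraries or of day 7 replicates 2 and 3 (adjusted p 0.0972 to 0.163). Aif1 (IBA1), a calcium-binding protein widely used to stain macrophages, read 0.159 to 0.828 naive and 1.26 to 1.49 at day 7 (0.97, SE 0.29, adjusted p = 0.108). Cd53, a leukocyte tetraspanin, read 1.15 to 1.29 naive and 2.10 to 2.81 at day 7 (0.75, adjusted p = 0.159), and Ms4a6c read 0.482 to 1.02 naive and 1.21 to 2.01 at day 7 (0.64, adjusted p = 0.221). Coro1a (coronin 1A), an actin regulator of leukocytes, read 3.65 to 7.01 over all libraries with differences of -0.29, 0.05 and -0.31. Coro1a overlaps Bola2 on the other strand, and the labels do not state whether counting used strand.

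Set apart by class, 2 of 7 resident-type markers rose at day 3 (Mrc1 and F13a1) and 3 of 7 at day 7 (Mrc1, F13a1 and Ms4a7). Of 6 recruited-type markers, 1 rose at day 3 (Itgam) and 2 at day 7 (Itgam and Ccr2). Of 19 shared markers, 4 rose and 1 fell at day 3, and 6 rose and 1 fell at day 7. Over all genes 3.72% rose at day 3 and 2.32% at day 7. The median log2 difference from naive was 0.75 and 0.76 for resident-type markers at days 3 and 7, 0.57 and 0.80 for recruited-type markers, and 0.57 and 0.80 for shared markers, against 0.00 and 0.00 for all genes. Without the 6 members that passed only through injured libraries, the medians were 0.72 and 0.76 for 6 resident-type, 0.67 and 0.88 for 5 recruited-type and 0.54 and 0.75 for 15 shared markers, and the rises at day 7 were 3, 2 and 4. From day 3 to day 7 the median difference was 0.06 for resident-type, 0.33 for recruited-type and 0.12 for shared markers (-0.03, 0.25 and 0.08 without those 6), with 0 calls in each, and the difference between classes was not tested.

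The 8 members below the filter had 0 to 48 recovered reads per library. The highest library of each was 0.883 RPKM for Spi1, 0.672 for Siglech, 0.925 for Tlr2, 1.13 for Fcgr1, 1.04 for Trem2, 1.40 for Pf4, 1.23 for Cd14 and 1.30 for Slc11a1. Slc11a1, a metal transporter of the phagosome, had 2 libraries at 1 RPKM or more and was nearest to the threshold from below. Fcgr1, the high-affinity IgG receptor, had 6 to 14 recovered reads in naive libraries, 26 to 39 at day 3 and 28 to 40 at day 7. Trem2, a lipid-sensing receptor that signals through Tyrobp, had 5, 0 and 0 reads in naive libraries and 9, 21 and 15 at day 7. Where a library had 0 reads of Trem2, a level of up to 0.156 or 0.172 RPKM (3 reads) cannot be told from absence, for counting error alone. These 8 genes entered no test at the chosen filter. With no filter Trem2 alone of the 8 was called, higher at day 7 than naive (1.14, adjusted p = 0.0184) and than day 1 (1.10, adjusted p = 0.0484), and for any difference among the 4 groups (adjusted p = 0.0271).

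Day 7 replicate 1 was the lowest of its group for 17 of the 32 members, and its difference from the other 2 day 7 libraries varied with gene length. Over all genes under 1500 bases (2932 genes) the median log2 difference was -0.22, and over genes above 4000 bases (3886 genes) it was 0.22. Among members the medians were -0.77 for the 9 short genes and 0.16 for the 8 long ones. The lowest values were -1.23 for Tyrobp, -1.06 for Fcer1g, -0.99 for Ly86, -0.93 for Lyz2 and -0.77 for Ctss, all short genes, whereas Mrc1 (0.04), Mpeg1 (0.17) and Ptprc (0.24) are long. Other libraries also showed such shifts over all genes, smaller in size: the medians for short and long genes were 0.15 and -0.12 in day 1 replicate 3, 0.13 and -0.14 in naive replicate 1, and -0.13 and 0.10 in day 3 replicate 1, whose 9 short members had a median of -0.45. Day 1 replicate 3 was the lowest of its group for 19 of the 32 members. How often each library was the lowest over all genes was not counted, so neither count can be called particular to the members. The part of gene length in the spread of the short members was not tested.

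**Figure D3:**
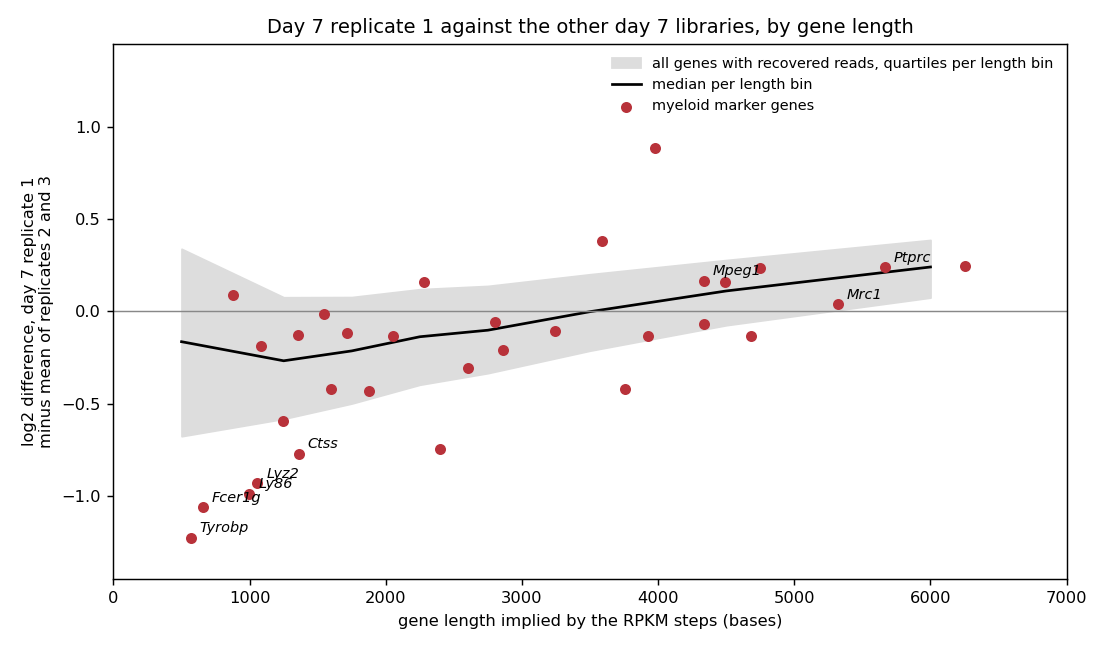
Log2 difference of day 7 replicate 1 from the mean of day 7 replicates 2 and 3 (vertical) against the gene length in bases that the RPKM steps imply (horizontal), with red points for the 32 members, a black line for the median of all genes per length bin and a grey band for their quartiles. Tyrobp, Fcer1g, Ly86 and Lyz2 lie between -1.23 and -0.93 at the short end, and Mrc1, Mpeg1 and Ptprc lie between 0.04 and 0.24 at the long end.

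Genes of the pathways around these members were read from lists. In the growth factor axis, Csf1, the main growth factor of macrophages, rose on every day, by 1.92 at day 1, 2.68 at day 3 and 2.30 at day 7. Its RPKM was 2.16 to 2.65 in naive libraries, 8.94 to 10.9 at day 1, 17.4 to 18.6 at day 3 and 11.9 to 15.6 at day 7. Its receptor Csf1r read 1.11 to 1.55 naive, 1.01 to 1.57 at day 1, 2.45 to 3.35 at day 3 and 3.39 to 4.89 at day 7. It rose by 0.85 (adjusted p = 0.0118) at day 3, a call that ended without naive replicate 3 or day 3 replicate 2 (adjusted p 0.0635 and 0.0651) or without both libraries with muscle transcripts (0.0632), and by 1.38 (adjusted p = 0.000418) at day 7. Csf2rb, the shared beta chain of receptors for GM-CSF and related cytokines, rose at day 1 (0.81, adjusted p = 0.0390), but the call ended without any 1 of the naive or day 1 libraries, day 3 replicates 2 or 3, or day 7 replicate 2 (adjusted p 0.0501 to 0.192), or without the pair with muscle transcripts (0.176) or at the ends of the second component (0.112). Of the 6 listed genes 5 were tested, and Il34 and Csf2ra did not pass.

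Of 16 chemokines that act on myeloid cells, 9 were tested, none rose, and Ccl24, an eotaxin, fell by 1.19 (adjusted p = 0.0229) at day 3. That call ended without naive replicates 1 or 3 or day 3 replicates 2 or 3 (adjusted p 0.0686 to 0.0985), or without the pair at the ends of the second component (0.0777). Ccl2, the ligand of Ccr2, read 1.39 to 1.63 RPKM naive and 2.74 to 4.23 at day 7 (0.89, adjusted p = 0.101). Of 10 receptors and bridging proteins for dying cells, 8 were tested. Pros1, which bridges exposed phosphatidylserine to the receptor Mertk, rose on every day (0.58, 0.67 and 0.78). Its day 1 call ended without naive replicate 3 or day 1 replicate 1 (adjusted p 0.0556 and 0.0558). Stab1, a scavenger receptor of resident macrophages and endothelium, rose on days 3 and 7 (0.98 and 1.08, the latter with an adjusted p of 0.0658 without the 2 libraries with muscle transcripts), and Axl rose at day 7 (0.53, adjusted p = 0.0273). The call of Axl ended without naive replicates 1 or 3 or day 7 replicates 2 or 3 (adjusted p 0.0774 to 0.125), without the pair with muscle transcripts (0.225) or without that at the ends of the second component (0.0864). Of 17 tested lysosome genes, Ctsc (cathepsin C) rose at days 3 and 7 (0.80 and 1.04) and the other 16 did not pass against naive. None of 9 tested signalling genes downstream of the activation motif (kinases, adaptors, phosphatases, a phospholipase and an exchange factor) and none of 2 tested NADPH oxidase subunits passed, with medians at day 7 of 0.50 and 0.29. Over all genes 2.6%, 3.72% and 2.32% rose at days 1, 3 and 7, and the median at day 7 was 0.00. Counts of 0 in lists this short are near those shares and cannot show that a pathway was unchanged.

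Markers of other leukocytes were measured beside these genes. Of 11 neutrophil markers 10 were found and 6 tested, with 0 calls on any day, and their summed RPKM was 17.99 to 21.6 naive, 10.7 to 17.9 at day 1, 12.6 to 69.6 at day 3 and 15.7 to 37.6 at day 7. The value of 69.6 was day 3 replicate 3, where S100a9 read 29.3 RPKM, and the granule protease Elane was at or below 0.501 RPKM in every library. Without that library 5 members and 3.78% of all genes were called at day 3, against 8 members and 5.67% with all libraries. Without day 3 replicate 1 or day 3 replicate 2 there were 6 members each (3.64% and 3.39% of all genes). Neutrophils also carry Itgam, Fcer1g, Lyz2 and Ptprc, and their part in the values of these members was not tested. Of 9 T and NK cell markers 0 passed the filter, and their sum was 0.363 to 2.50 RPKM over all libraries, with Nkg7 at 0 in every naive library, Cd3d in every day 1 library and Cd3g in every day 7 library. The microglial sum was 4.32 to 5.51 RPKM naive and 6.96 to 8.58 at day 7. Tmem119, Sall1 and Siglech reached at most 1.24, 0.249 and 0.672 RPKM, so most of the day 7 sum came from P2ry12 and Gpr34. Of this list 0 of 2 tested genes were called, with a median difference from naive of 0.59 at day 7 (0.00 over all genes). Dendritic cell markers summed to 8.74 to 11.5 RPKM with 0 of 3 called, B and plasma cell markers to 1.49 to 2.69 with 0 of 1 called, and mast cell markers to 24.9 to 32.6 with 0 of 3 called. Over all genes 2.6%, 3.72% and 2.32% rose at days 1, 3 and 7, so counts of 0 in such short lists are near those shares.

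Dividing-cell markers summed to 3.66 to 5.22 RPKM naive, 3.10 to 4.18 at day 1, 7.25 to 12.3 at day 3 and 5.92 to 7.20 at day 7. Of the 2 tested, Mki67 and Top2a, neither passed against naive (adjusted p = 0.0703 and 0.0938 at day 3), and Top2a was higher at day 7 than at day 1 (1.23, adjusted p = 0.0313). Which cells divide is not seen in bulk RNA, and the part of division in the macrophage markers was not tested. Blood markers summed to 15.8 to 24.3 RPKM over all libraries, with 0 of 1 tested gene called. Of these markers, 3 of 4 globin genes were listed at 0 in every library, which does not show that blood was absent.

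**Figure D4:**
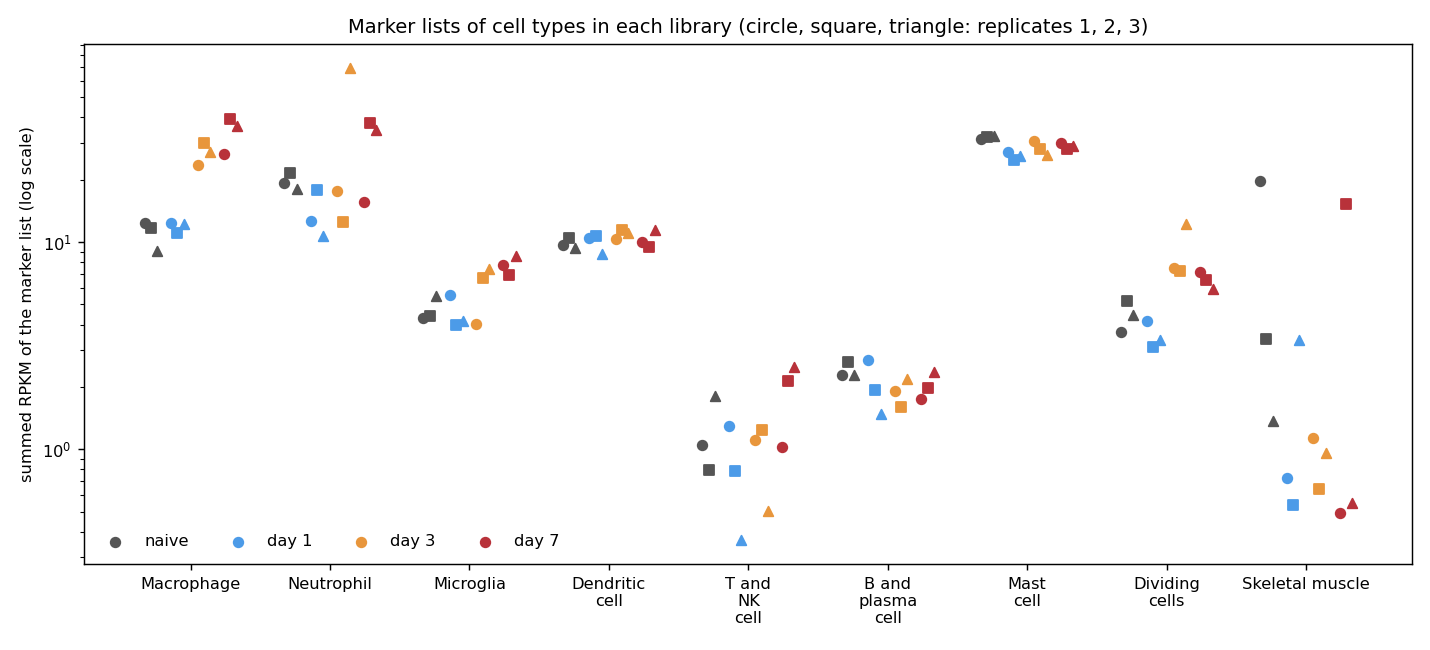
Summed RPKM (log axis) of 9 marker lists in each of the 12 libraries, colour giving the group and circle, square and triangle replicates 1, 2 and 3. Macrophage sums run from 9.02 to 12.4 in naive and from 26.6 to 39.5 in day 7 libraries, the neutrophil sum of day 3 replicate 3 stands at 69.6, and T and NK cell sums stay at or below 2.50.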

How the data were processed

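RNA of dorsal root ganglia was measured in 12 RNA-seq libraries, 3 per group, and titles gave the groups and replicate numbers. TruSeq Nano libraries were made after Nugen Ovation amplification of 500 pg RNA, per the labels' protocols. The submitters' processing notes name mm10 and, with no roles, STAR, HTSeq, limma, edgeR and bcl2fastq 2.17. The authors deposited 1 value per gene and library, read here as RPKM from the values, since no unit is written. Whole reads were recovered from the RPKM steps for 21102 of 21597 detected genes (97.7%, tolerance 0.05 reads). Reads copied by amplification and lacking molecular identifiers are not independent, so counting limits cover counting error only. Among the symbols, 27 had turned into dates.

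Genes with an RPKM of 1 or more in at least 3 libraries were kept (14195), scaled by unweighted trimmed means of log ratios (30% of ratios and 5% of levels trimmed) and taken as log2(RPKM + 0.5), which understates changes of low genes. Limma 3.58.1 in R 4.3.3 fitted 4 group means to all 12 libraries (8 residual degrees of freedom, variance trend, robust moderation, tested on simulated data). Tests were two-sided, p-values were adjusted by Benjamini-Hochberg across the whole table, and the threshold was 0.05. With 3 libraries against 3, exact permutation cannot give p below 0.1 and was not used.

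The members, classes, lists and settings were chosen with earlier results of these data known. Every tested member is named, the 17 with full values being Mrc1, Ctss, Mpeg1 and the 3 with the smallest p over the 4 groups in each role. Pathway genes are named where an adjusted p passed. Ccl2, Il34, Csf2ra, Mki67, S100a9, Elane, Tmem119, Sall1, P2ry12 and Gpr34 were added after their values were seen. The 24 alternative settings changed the pseudocount, filter, scaling, library weights, replicate block, libraries left out, groups fitted, or used voom on recovered reads of 13700 genes. Coordinates are from GENCODE M21 and promoter windows from RefSeq, which held 33 of 40 members.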

Additional observations from a re-analysis of the deposited data

Results flagged for a closer look

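The response to injury differed between days for 9 members, by a direct limma test of the later day against day 1 with adjustment over all genes. At day 3 against day 1, log2 values were higher by 1.02 for Ctss, 1.21 for Mrc1, 1.21 for Ms4a7, 1.03 for Adgre1 and 1.09 for Cd84. Of all genes 0.38% were called higher in this contrast. For all 5 members each day 3 library lay above each day 1 library, which was so for 7.74% of all genes. That adds no support, since the 5 were picked by a test on the same libraries. With 1 library left out, the Mrc1 call ended only without day 3 replicate 2 (adjusted p = 0.0537), and the Adgre1 call without day 1 replicates 2 or 3 or day 3 replicates 1 or 2 (adjusted p 0.0574 to 0.0909). The Ctss call held only without day 7 replicates 1 or 2 and ended without any 1 of the other 10 libraries (adjusted p 0.0534 to 0.215). The Ms4a7 call held only without day 1 replicate 2, day 3 replicate 1 or day 7 replicate 1 (adjusted p otherwise 0.0534 to 0.172), and the Cd84 call ended without any 1 of the 12 (0.0521 to 0.168).

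At day 7 against day 1, log2 values were higher by 1.70 for Ctss, 1.08 for Mrc1, 1.21 for Mpeg1, 1.67 for Ms4a7, 1.11 for Ccr2, 1.28 for Adgre1, 1.04 for Ptprc, 1.31 for Cd84 and 1.02 for Cybb. Of all genes 0.613% were called higher in this contrast. For all 9 members each day 7 library lay above each day 1 library, which was so for 6.95% of all genes. Again the 9 were picked by a test on the same libraries, so this adds no support. The calls of Ctss, Mrc1, Mpeg1, Ms4a7 and Adgre1 held with any 1 library left out. That of Ccr2 ended without day 1 replicates 1 or 3 (adjusted p 0.0508 and 0.0541) and that of Cd84 without day 1 replicate 3 (0.0535). Ptprc ended without naive replicate 3, day 1 replicates 1 or 3, day 3 replicate 2 or any 1 day 7 library (adjusted p 0.0510 to 0.115). Cybb held only without naive replicate 1 or day 3 replicate 3 (adjusted p otherwise 0.0592 to 0.166).

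Without the 2 libraries with muscle transcripts, the day 3 calls against day 1 of Ctss (adjusted p = 0.0501), Ms4a7 (0.0800) and Cd84 (0.0910) ended, as did the day 7 calls against day 1 of Mrc1 (0.0505), Ccr2 (0.0505), Ptprc (0.0716), Cd84 (0.0549) and Cybb (0.141). Without the 2 libraries at the ends of the second principal component, the day 3 calls of Ms4a7 (adjusted p = 0.0507) and Cd84 (0.0708) and the day 7 calls of Ccr2 (0.0585), Ptprc (0.0777), Cd84 (0.0629) and Cybb (0.110) ended.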

How the results depend on the processing

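Of the members called against naive, Ctss and Mrc1 at days 3 and 7, Mpeg1 at day 7 and Lcp1 at day 3 passed in all 24 alternative settings. F13a1 at day 3 and Adgre1 at day 7 passed in all 23 that tested them, and no called value changed sign. With all libraries and the chosen settings, 1, 8 and 12 of 32 members were called against naive at days 1, 3 and 7, 5 at day 3 against day 1, 9 at day 7 against day 1, 0 at day 7 against day 3 and 14 for any difference. Leaving out each library in turn gave 0 to 1, 5 to 9, 5 to 13, 0 to 5, 5 to 10, 0 to 0 and 8 to 14 in that order. The share of all genes called against naive then ran from 1.54% to 4.33%, 3.13% to 7.62% and 1.66% to 3.67% at days 1, 3 and 7. With all libraries it was 3.43%, 5.67% and 2.92%. Voom on recovered reads called 1, 12 and 16 members against naive at days 1, 3 and 7, and 602, 1004 and 536 of 13700 genes, where limma called 487, 805 and 415 of 14195. Array weights called 4 at day 1, 18 at day 3 and 11 at day 3 against day 1, where they called 13%, 13.8% and 2.46% of all genes. A filter at RPKM 5, which leaves 10 members, called 4 at day 3, 4 at day 7 and 2 at day 3 against day 1. Of all genes past that filter 8.01%, 3.82% and 0.558% were called in these contrasts. The same filter called 5 members at day 7 against day 1 and 6 for any difference. Without the 2 libraries with muscle transcripts there were 4 calls at day 7, 2 at day 3 against day 1, 4 at day 7 against day 1 and 9 for any difference. Of all genes 1.16% were then called at day 7 and 0.324% at day 3 against day 1. For day 3 against day 1, no filter gave 3, no scaling 3, voom 8, only the 2 groups 2, and leaving out the 2 libraries at the ends of the second component 3. Of all genes 0.507% were called there with the chosen settings, 0.25% with no filter, 0.409% without scaling and 0.634% without that pair. Only the 2 groups gave 5 at day 7 against day 1. The causes were not tested.

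Correlations of deviations ran from -0.34 to 0.234 over 18 pairs of same-numbered libraries of different groups. They ran from -0.35 to 0.298 over 36 pairs with unlike numbers. Thus no shared deviation by number was seen, but this check cannot exclude that the numbers pair the samples. With the replicate block, the counts were 1, 9 and 11 against naive, 2 at day 3 against day 1, 8 at day 7 against day 1, 0 at day 7 against day 3 and 13 for any difference. Of all genes the block called 2.55%, 4.59% and 2.28% against naive and 0.218% at day 3 against day 1. Without scaling, 87.9% of all genes called at day 3 against day 1 were higher (75% with it), and 73.4% at day 7 against day 1 (63%). With array weights 1844, 1954 and 831 genes were called against naive at days 1, 3 and 7, of which 56.2%, 55.6% and 61.1% were higher (75.8%, 65.6% and 79.5% without them), and 349 and 293 at days 3 and 7 against day 1 (57.3% higher in the first). At these depths the 8 members below the filter had 0 to 48 recovered reads per library. Small changes in them, and in short members near 1 RPKM, may have been missed.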
